A study of Mus musculus with 19 samples.

Results

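The genes described here encode proteins that copy nuclear DNA: the factors that load and fire the replicative helicase, the polymerases with their clamp and clamp loader, the single-strand binding complex, the enzymes of nucleotide supply, and the enzymes that join the finished fragments. The list holds 35 genes by name, and its probes were found by matching the gene symbols of the array's annotation. Of the 35 genes, 32 had at least 1 named probe (55 probes of 25697 on the array), and 29 had a probe bright enough to be tested (43 probes of the 19272 tested, and 29 of 12938 genes). Gins1, Gins2 and Rfc3 were not analysed here. Orc1, Pola1 and Slbp had only a probe below the brightness threshold, a mean intensity of 162.92, and are given at the end of their role.

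Left ventricular myocardium came from male MerCreMer mice, a line whose Cre recombinase is a fusion with mutated estrogen receptor domains, driven by the cardiac myosin heavy chain promoter, back-crossed to C57Bl6/J and aged 12 to 20 weeks. All groups carry the transgene. The 19 arrays are 5 of non-failing controls without tamoxifen, 4 of day 2 and 3 of day 3 of tamoxifen. A further 3 are of day 10 (5 days of tamoxifen and 5 further days) and 4 of day 28 (5 days of tamoxifen and 23 further days). Tamoxifen was injected daily (1 mg, 40 mg/kg, intraperitoneal, in peanut oil). For the hearts of days 10 and 28, the further days were spent on normal diet, per the labels. There is no vehicle group and no group of tamoxifen-treated mice without Cre, so tamoxifen, Cre activity and elapsed time cannot be told apart. The values are from bulk tissue, in which fewer cells of a type and less RNA per cell cannot be told apart. Nothing in the labels beyond the array numbers says how the samples of a group were obtained, so p-values reflect only how far these samples spread, which may be technical.

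As background, a cell licenses its replication origins in G1 phase, when the origin recognition complex together with Cdc6 and Cdt1 places MCM helicase rings on the DNA. In S phase the rings are switched on by Cdc45 and the GINS complex, polymerase alpha-primase starts each new strand, the clamp loader sets the PCNA clamp in place, and the leading and lagging strand polymerases extend it. Many of these genes are transcribed just ahead of S phase through E2F transcription factors, and their messages are scarce in cells that have left the cycle. In the adult heart most cardiomyocytes no longer divide, while fibroblasts, endothelial cells and immune cells of the tissue can still enter the cycle.

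Each value below is a log2 intensity on the array after background correction, in log2 units, and each difference is a difference of group means on that scale. A difference is called when its adjusted p lies below 0.05 in a linear model over all probes tested. A gene is represented by its brightest probe. Probes of different genes are not compared in level. In a principal component analysis of all arrays, controls 4 and 5 lay apart from controls 1 to 3 (20.5 and 20.1 on component 2, against 1.59 to 4.38) and beside the day 28 arrays (21.1 to 23.1). For 17 of the 29 tested genes controls 4 and 5 were both above controls 1 to 3, against a background of 20% of all genes, so counts against control are also given without these 2 arrays.

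Most of the replication genes were higher at day 10 than in control. Against control, 22 of 29 rose and 0 fell at day 10, 15 of them at least 2-fold. The background for this comparison was 37.5% of all 12938 genes called, 18.2% of all being higher and 19.2% lower. The median log2 difference of the 29 was 1.02, beside -0.04 over all genes. For 23 of the 29 the day 10 arrays lay wholly outside the range of the controls, against a background of 37.8%. For 20 of the 29 the 3 day 10 arrays lay above the other 16 arrays of the series, against a background of 8.61% of all genes. Without controls 4 and 5, 25 rose, with a background of 18.2% of genes higher and 19.3% lower and a median of 1.10. At an unadjusted p under 0.05 in limma's fit, 26 of the 29 were higher at day 10 and 0 lower, against a background of 21.3% of genes higher and 23.1% lower at that threshold.

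At the earlier times and at day 28 the counts were small. At day 2, 1 gene rose (Mcm6) and 1 fell (Rpa3), against a background of 7.06% of genes called (3.95% higher, 3.11% lower), and the median difference was 0.00, beside 0.01 over all genes. At day 3, 4 genes rose (Mcm6, Tyms, Orc6 and Mcm5) and 5 fell (Rfc4, Rpa3, Rpa2, Gins4 and Rfc1), which is near the background of 30% of genes called (15.1% higher, 14.8% lower), and the median was 0.05, beside -0.02 over all genes. At day 28, 1 gene rose (Orc6) and 0 fell, against a background of 2.09% (1.33% higher, 0.757% lower), and the median was 0.14, beside 0.00 over all genes (7 higher and 0 lower at an unadjusted p under 0.05 in limma's fit, against a background of 8.2% higher and 8.58% lower). Without controls 4 and 5, 1 gene was higher and 0 lower at day 2 (background 2.03% higher, 1.96% lower), and 4 were higher and 4 lower at day 3 (background 14.3% higher, 13.7% lower). In the same fit 5 were higher and 0 lower at day 28, against a background of 5.34% higher and 5.3% lower, and the additions were Mcm6, Gins4, Tyms and Rpa3.

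Between consecutive times, 26 of 29 genes were higher at day 10 than at day 3, 18 of them at least 2-fold, against a background of 32.9% of genes called, 16.3% higher and 16.6% lower. At day 28, 21 of 29 were lower than at day 10 and 0 were higher, against a background of 31.6% called, 15.4% lower and 16.2% higher (23 lower and 0 higher at an unadjusted p under 0.05, where the background was 19.2% lower and 20.7% higher). At day 3, 2 genes were higher than at day 2 (Orc6 and Mcm3) and 3 were lower (Rfc4, Gins4 and Rpa2), against a background of 20% called, 9.31% higher and 10.7% lower. The Rpa2 call was lost without day 2 array 2 or 4 and without day 3 array 2 or 3 (adjusted p = 0.0704 to 0.134). It was also lost with no background correction (0.0569), with the 2 groups fitted alone (0.0552) and with a block for the array number (0.0686). These comparisons share groups with one another and with the comparisons against control. The map of every gene on every array shows the day 10 columns apart from the rest for most roles. The smallest median day 10 differences from control were those of polymerases and primase (0.38), single-strand binding (0.41) and clamp and clamp loader (0.49).

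**Figure D1:**
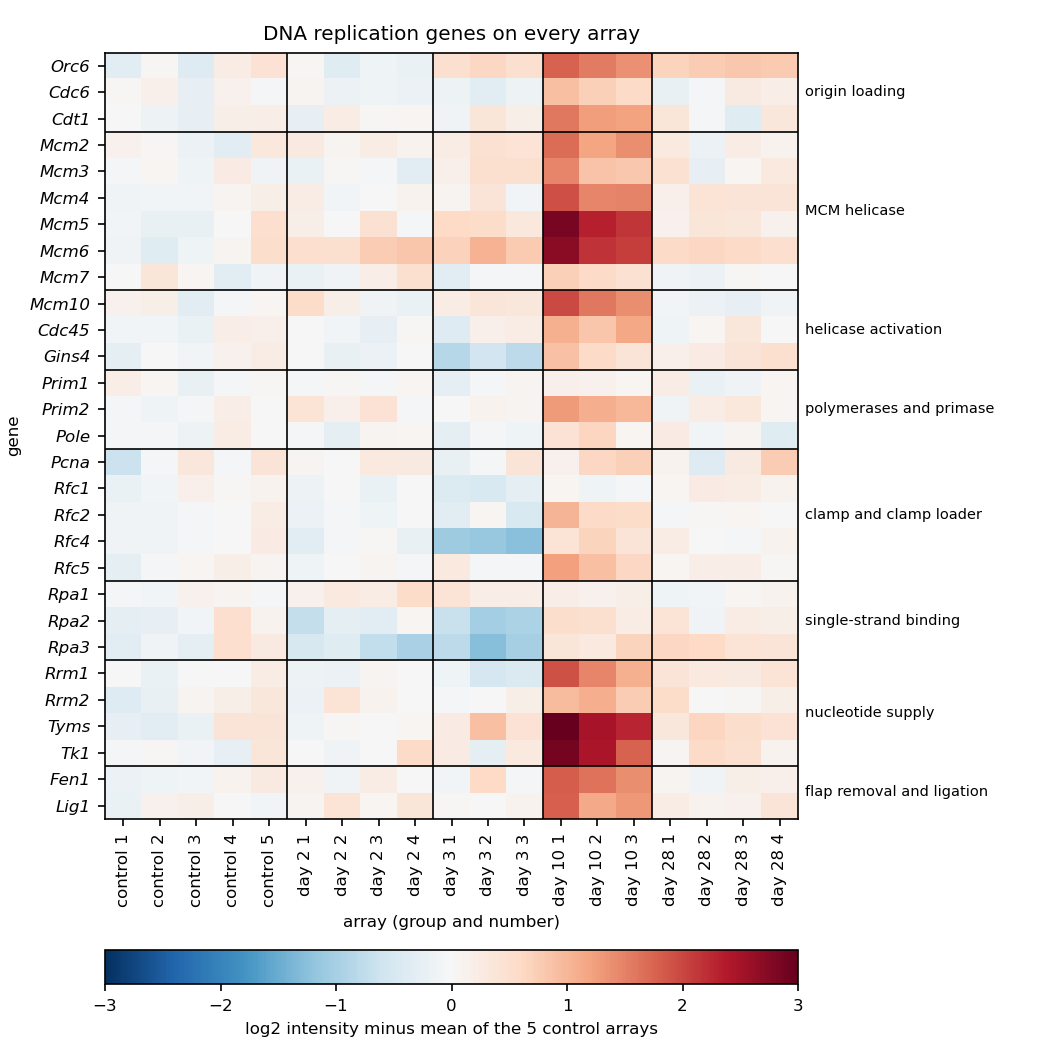
Log2 intensity of the 29 tested replication genes (rows, by role) on each of the 19 arrays (columns, by group), as the difference from the mean of the 5 control arrays. The 3 day 10 arrays are the most strongly coloured columns, and Rfc4, Rpa3, Rpa2 and Gins4 are below control on the 3 day 3 arrays.

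The average of the 29 genes ranged from 8.78 to 9.13 on the day 10 arrays, against 7.70 to 8.01 on the control arrays. Day 2 (7.82 to 7.88) and day 3 (7.75 to 7.85) lay inside the control range, and day 28 (7.96 to 8.05) overlapped its upper end. Within day 10, array 1 held the highest value for 19 of the 22 genes that rose, and array 3 held the lowest for 18 of them. The share of all genes with this order was not counted. Over all tested probes, component 1 of the principal component analysis placed day 10 arrays 1, 2 and 3 in the same order (72.7, 63.4 and 54.3). Whether the order is particular to the replication genes was not tested. Macrophage and monocyte markers moved with the same arrays: their summed intensity over 13 tested markers was 84910, 67740 and 51460 on day 10 arrays 1, 2 and 3, and their part in the rise of the replication genes was not tested.

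Counts by role are of few genes. They are read against the 37.5% of all genes called at day 10 (18.2% higher) and 30% at day 3 (14.8% lower). Genes that load the helicase at origins rose at day 10 in 3 of 3 tested. Orc6, a subunit of the origin recognition complex (probe ILMN_2683190), had 8.35, 8.70, 8.27, 8.87 and 9.09 in control, and 8.69, 8.30, 8.54 and 8.46 at day 2. It had 9.12, 9.27 and 9.12 at day 3, 10.43, 10.21 and 10.03 at day 10, and 9.32, 9.42, 9.47 and 9.43 at day 28. Each of the day 3, day 10 and day 28 arrays was above every control array, and the day 2 arrays lay within the control range. Orc6 was 0.52 ± 0.16 (SE) higher at day 3 than control (adjusted p = 0.0135), 1.57 ± 0.16 higher at day 10 (2.97-fold, adjusted p = 2.25e-08) and 0.76 ± 0.14 higher at day 28 (1.69-fold, adjusted p = 0.00587). The day 3 call was lost when day 3 array 2 was left out (adjusted p = 0.0646) and when the control and day 3 arrays were fitted alone (0.0536).

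Cdt1, which brings the MCM ring to the origin, had 7.20, 7.04, 6.93, 7.37 and 7.38 in control, 6.93, 7.40, 7.21 and 7.24 at day 2, and 7.07, 7.55 and 7.36 at day 3. It had 8.76, 8.42 and 8.38 at day 10 and 7.55, 7.15, 6.82 and 7.51 at day 28. All 3 day 10 arrays stood above the other 16, which overlapped one another. The day 10 difference was 1.34 ± 0.17 (2.54-fold, adjusted p = 5.87e-07). Cdc6, the partner of Cdt1 in loading, ranged from 7.85 to 8.18 at day 10 and from 7.03 to 7.44 in control, a difference of 0.73 (adjusted p = 8.87e-05). Orc1, the large subunit of the origin recognition complex, was below the threshold with group means of 6.03 in control and 6.14 at day 10, and has no test.

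The 6 subunits of the MCM ring, the helicase motor, all rose at day 10. Mcm5 (probe ILMN_2742849) had 7.36, 7.23, 7.23, 7.46 and 7.96 in control, 7.63, 7.43, 7.89 and 7.38 at day 2, and 8.04, 8.0 and 7.76 at day 3. It had 10.28, 9.77 and 9.60 at day 10 and 7.58, 7.82, 7.79 and 7.59 at day 28. The day 10 arrays stood far above the others, and the day 2, day 3 and day 28 groups each overlapped the controls, of which control 5 was the highest. The day 10 difference was 2.44 ± 0.17 (5.42-fold, adjusted p = 1.41e-10). The day 3 difference was 0.49 (adjusted p = 0.0328), and its call was lost without control 1 (adjusted p = 0.0601), 2 (0.076) or 3 (0.077) and without day 3 array 1 or 2 (0.107 each). It was also lost with no background correction (0.0558) and when the control and day 3 arrays were fitted alone (0.0541).

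Mcm6 (probe ILMN_2803399) had 7.80, 7.56, 7.78, 8.0 and 8.43 in control, 8.41, 8.40, 8.66 and 8.74 at day 2, and 8.61, 8.96 and 8.71 at day 3. It had 10.62, 10.07 and 9.99 at day 10 and 8.49, 8.53, 8.48 and 8.42 at day 28. Control 5 reached into the day 2 and day 28 ranges, whereas the day 3 and day 10 arrays were above every control. Mcm6 was the replication gene that rose at day 2 (0.64 ± 0.15, 1.56-fold, adjusted p = 0.0109). It was 0.85 ± 0.17 higher than control at day 3 (adjusted p = 0.000346) and 2.31 ± 0.17 higher at day 10 (4.97-fold, adjusted p = 2.3e-10). The day 2 call was not made on the mean over the gene's probes (0.34, adjusted p = 0.174). At day 28 the difference was 0.57 with an adjusted p of 0.0555, and it was called without control 4 (0.59, adjusted p = 0.0454) or control 5 (0.70, adjusted p = 0.00658).

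The 4 other ring subunits rose at day 10 by smaller amounts. Mcm4 had 11.14, 10.66 and 10.68 at day 10 and 9.08 to 9.37 in control (difference 1.63, 3.10-fold, adjusted p = 1.83e-09). Mcm2 ranged from 8.15 to 8.64 at day 10 and from 6.66 to 7.28 in control (1.42, adjusted p = 3.91e-08). Mcm3 ranged from 7.55 to 8.21 at day 10 and from 6.60 to 6.97 in control (1.05, adjusted p = 1.38e-05). It was also 0.51 higher at day 3 than at day 2 (adjusted p = 0.0394), a call that was lost without day 2 array 1 or 4 and without day 3 array 2 or 3 (adjusted p = 0.0876 to 0.151). The call was also lost with no background correction (0.0722) and with a block for the array number (0.0547). Mcm7 ranged from 6.89 to 7.14 at day 10 and from 6.10 to 6.78 in control (0.58, adjusted p = 0.00406), close to the brightness threshold of 6.41 on this scale.

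The promoters of these genes were read for the E2F motif, since the MCM genes moved together. The windows are those of RefSeq (GRCm38.p6), 250 bases before to 50 bases after the annotated start of a gene, and were found for 28 of the 35 genes. The motif was any of TTTCCCGC, TTTCGCGC, TTTGCCGC and TTTGGCGC on either strand, and matches may overlap. At least 1 match lay in the windows of 10 of the 28 genes (35.7%), against 408 of 10404 genes tested on the arrays (3.92%) and 704 of 27025 genes of the whole promoter table (2.6%). Among genes with a window, 7 of 18 that rose at day 10 held a match and 0 of 6 that were tested and not called did. A match is a run of letters in this window and not a measured binding site, and these shares have no test. Shown first are the 250 bases before the start of Mcm5 and Mcm6, which hold paired matches, and of Tyms and Rpa3, which hold no E2F match. Tyms had the largest rise at day 10 by its brightest probe, but its probes did not agree. Rpa3 fell at day 3 and was not called at day 10. Capitals mark E2F matches and CCAAT boxes (CCAAT or its complement ATTGG), and each strand is read 5′ to 3′ toward the gene.
Mcm5, chr8:75109259-75109508, plus strand: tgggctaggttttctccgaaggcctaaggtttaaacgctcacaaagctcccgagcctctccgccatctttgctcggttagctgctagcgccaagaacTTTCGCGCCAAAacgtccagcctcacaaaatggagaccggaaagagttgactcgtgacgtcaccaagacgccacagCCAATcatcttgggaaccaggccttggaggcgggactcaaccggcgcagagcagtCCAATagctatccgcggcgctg
Mcm6, chr1:128359706-128359955, minus strand: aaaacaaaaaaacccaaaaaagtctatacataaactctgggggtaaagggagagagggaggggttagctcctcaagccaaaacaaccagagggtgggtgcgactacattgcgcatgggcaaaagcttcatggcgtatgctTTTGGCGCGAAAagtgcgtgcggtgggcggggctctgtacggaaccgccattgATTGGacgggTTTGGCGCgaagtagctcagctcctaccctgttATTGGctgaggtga
Tyms, chr5:30073626-30073875, minus strand: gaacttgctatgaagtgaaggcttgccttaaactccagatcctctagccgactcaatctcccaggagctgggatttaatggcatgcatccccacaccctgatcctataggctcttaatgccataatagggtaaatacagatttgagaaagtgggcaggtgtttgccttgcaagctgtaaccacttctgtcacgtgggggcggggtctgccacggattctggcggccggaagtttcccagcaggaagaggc
Rpa3, chr6:8259142-8259391, minus strand: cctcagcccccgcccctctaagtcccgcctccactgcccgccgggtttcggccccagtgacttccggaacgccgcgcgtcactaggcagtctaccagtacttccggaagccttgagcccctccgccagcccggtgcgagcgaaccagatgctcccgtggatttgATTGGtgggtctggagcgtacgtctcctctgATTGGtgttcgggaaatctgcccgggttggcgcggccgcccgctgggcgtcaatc
In Mcm5 and Mcm6 an E2F match on each strand overlaps the other, from base -153 to -142 in Mcm5 and from base -110 to -99 in Mcm6, counted from the start as base 0. Mcm6 holds a further match from base -47 to -40, shortly after a CCAAT box. The other 5 genes that rose at day 10 and hold a match are shown by their match with 10 bases on each side, the more upstream one where a window holds 2.
Cdc6 site, chr11:98908003-98908030, plus strand: ccggtggagaGCGGGAAAtcgcctgggg
Cdt1 site, chr8:122568037-122568064, plus strand: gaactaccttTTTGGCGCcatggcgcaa
Lig1 site, chr7:13278842-13278869, plus strand: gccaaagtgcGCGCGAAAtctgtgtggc
Mcm3 site, chr1:20820276-20820303, minus strand: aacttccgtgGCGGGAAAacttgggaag
Mcm7 site, chr5:138172031-138172058, minus strand: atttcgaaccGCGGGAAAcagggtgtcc
These matches lie before the start in Cdc6 and Mcm7 and after it in Cdt1, Lig1 and Mcm3. The remaining matches were in Orc1, Pola1 and Rfc3, of which none has a tested probe. CCAAT boxes lay in 20 of the 28 windows (71.4%), against 42.9% of the genes tested on the arrays. They lay in 10 of 18 genes that rose at day 10 and in 6 of 6 that were tested and not called, the reverse of the E2F order. The CHR motif TTTGAA, known from promoters of mitosis genes, lay in 10.7% of the replication windows, 15.9% of the tested genes and 68.4% of the 19 mitosis genes with a window, of which 5.26% held an E2F match. Gins1, Gins2, Gins4, Mcm4, Pole, Prim2 and Rfc2 were not included.

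**Figure D2:**
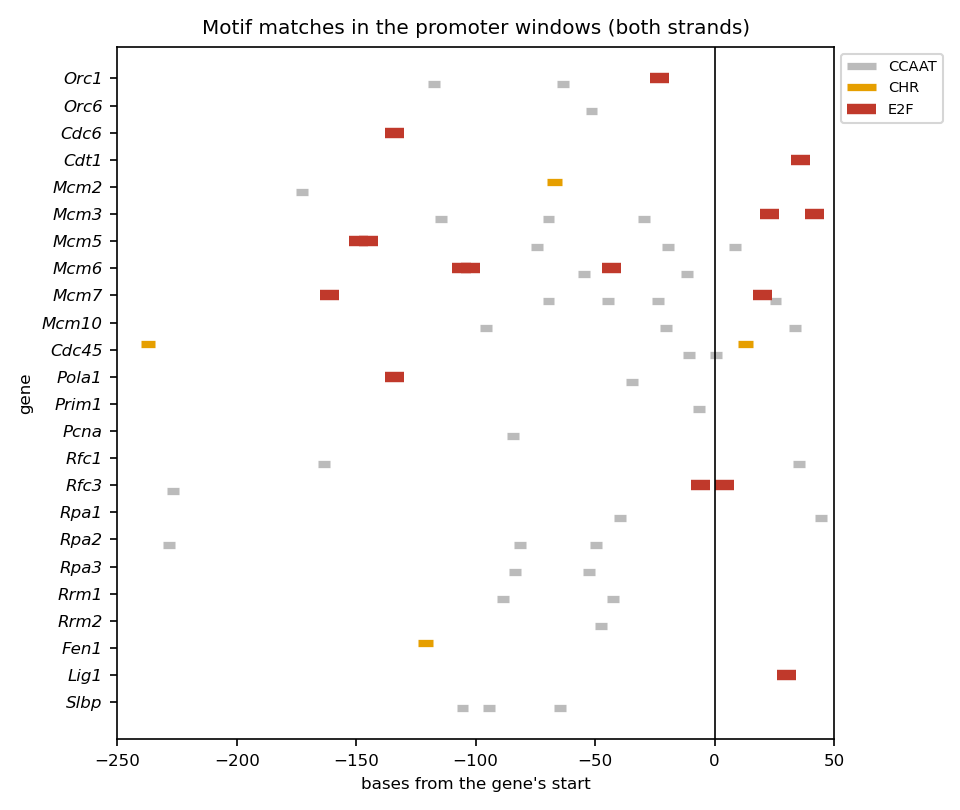
Positions of E2F, CHR (TTTGAA) and CCAAT matches, on either strand, in the promoter windows of the 24 replication genes that hold any of them, in bases from the annotated start (vertical line). E2F matches lie in 10 genes, paired upstream of the start in Mcm5 and Mcm6.

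The factors that turn the loaded ring into a moving helicase rose at day 10 in 3 of 3 tested. Mcm10, which helps to activate the ring, had 6.56, 6.60, 6.11, 6.36 and 6.49 in control, 6.97, 6.61, 6.32 and 6.24 at day 2, and 6.65, 6.79 and 6.77 at day 3. It had 8.40, 8.0 and 7.83 at day 10 and 6.34, 6.24, 6.19 and 6.31 at day 28. The day 10 arrays stood apart, while most other values lay close to the threshold of 6.41, so that differences among the other groups have little range. The day 10 difference was 1.65 ± 0.16 (3.15-fold, adjusted p = 1.11e-08), and a second probe had 0.59 (adjusted p = 0.0101).

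Cdc45, which rides with the ring in the active helicase, had 6.90, 6.90, 6.79, 7.19 and 7.15 in control, 7.0, 6.90, 6.74 and 7.01 at day 2, and 6.61, 7.13 and 7.20 at day 3. It had 8.05, 7.83 and 8.14 at day 10 and 6.85, 7.05, 7.32 and 6.99 at day 28. The day 10 arrays were above all others, and the day 10 difference was 1.02 ± 0.15 (2.03-fold, adjusted p = 4.47e-06). Gins4, a subunit of the GINS complex, had 9.65, 9.90, 9.83, 10.04 and 10.14 in control, 9.92, 9.69, 9.73 and 9.89 at day 2, and 9.07, 9.34 and 9.12 at day 3. It had 10.79, 10.49 and 10.31 at day 10 and 10.05, 10.16, 10.30 and 10.38 at day 28. Its day 3 arrays were below every control and its day 10 arrays above every control. Gins4 fell by 0.74 ± 0.14 at day 3 against control (1.67-fold, adjusted p = 0.000165) and was 0.62 ± 0.14 higher at day 10 (1.54-fold, adjusted p = 0.000683).

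Among polymerases and primase, 1 of 3 tested genes rose at day 10 (33.3% called, near the 37.5% of all genes). Prim2, the large primase subunit, had 6.70, 6.62, 6.72, 6.96 and 6.76 in control, 7.17, 6.90, 7.18 and 6.70 at day 2, and 6.77, 6.87 and 6.85 at day 3. It had 8.03, 7.84 and 7.75 at day 10 and 6.65, 6.97, 7.08 and 6.82 at day 28. Its day 10 arrays were above every other array, and the difference was 1.12 ± 0.13 (2.17-fold, adjusted p = 2.93e-07). Prim1, the catalytic primase subunit, differed by 0.11 at day 10 with a 95% interval of -0.14 to 0.37 (adjusted p = 0.535). Its probe was the dimmest of the 29 and passed the brightness threshold only with the day 10 arrays counted. Pole, the catalytic subunit of the leading strand polymerase, differed by 0.38 at day 10 (interval 0.07 to 0.68, adjusted p = 0.0507). The Pole difference was called in 10 of 29 other fits. Among these were the fits without control 4 (0.44, adjusted p = 0.0276), without day 10 array 3 (0.54, adjusted p = 0.0109) and without controls 4 and 5 (0.45, adjusted p = 0.0351). Fits of all arrays with array weights (0.455, adjusted p = 0.0119) and with a filter at the 50th percentile (0.38, adjusted p = 0.0385) also called it. Pola1, the catalytic subunit of polymerase alpha, was below the threshold, with group means of 6.06 in control and 6.13 at day 10.

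Of the clamp and its loader, 3 of 5 tested genes rose at day 10 (60% called, against 37.5% of all genes). At day 3, 2 of 5 fell (40% called, against 30% of all genes). Rfc5, a small subunit of the loader, had 6.87, 7.12, 7.22, 7.34 and 7.25 in control, 7.03, 7.15, 7.24 and 7.12 at day 2, and 7.45, 7.12 and 7.12 at day 3. It had 8.39, 8.06 and 7.78 at day 10 and 7.22, 7.36, 7.36 and 7.21 at day 28, so that only the day 10 arrays were apart (0.92 ± 0.14, 1.89-fold, adjusted p = 7.8e-06). Rfc2, another small subunit, had 9.42, 9.42, 9.49, 9.50 and 9.73 in control, 9.33, 9.45, 9.38 and 9.53 at day 2, and 9.19, 9.56 and 9.06 at day 3. It had 10.52, 10.09 and 10.06 at day 10 and 9.47, 9.54, 9.57 and 9.51 at day 28. The day 10 arrays of Rfc2 lay above the rest, with a difference of 0.71 ± 0.13 (1.64-fold, adjusted p = 0.000108).

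Rfc4, a further subunit of the loader, showed the largest change of a replication gene at day 3. Rfc4 (probe ILMN_2613118) had 8.32, 8.32, 8.39, 8.44 and 8.67 in control, 8.12, 8.38, 8.46 and 8.20 at day 2, and 7.36, 7.30 and 7.18 at day 3. It had 8.83, 9.09 and 8.82 at day 10 and 8.65, 8.42, 8.39 and 8.53 at day 28. The day 3 arrays were far below every other array and the day 10 arrays above every control. Rfc4 fell by 1.15 ± 0.12 at day 3 against control (2.22-fold, adjusted p = 1.02e-07) and was 1.63 higher at day 10 than at day 3 (adjusted p = 4.9e-09). Its second probe, with a control mean of 6.66, did not show the day 3 fall (-0.08, adjusted p = 0.742), and was 0.34 higher than control at day 10 (adjusted p = 0.049).

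Rfc1, the large loader subunit, ranged from 9.12 to 9.29 at day 3 and from 9.36 to 9.71 in control, a difference of -0.38 (adjusted p = 0.0119) that lost its call without controls 4 and 5 (-0.34, adjusted p = 0.0532) and without day 3 array 2 (-0.35, adjusted p = 0.0593). At day 10 it differed from control by -0.04 (interval -0.27 to 0.19, adjusted p = 0.829). Pcna, the sliding clamp, ranged from 7.16 to 7.76 at day 10 and from 6.41 to 7.42 in control. The groups overlapped, and the difference of 0.49 was not called (interval 0.03 to 0.95, adjusted p = 0.096), but it was without control 5 (adjusted p = 0.0492) or without day 10 array 1 (0.0458). Pcna had the widest spread between control arrays of the 29 genes, with an SD of 0.41.

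The genes of the single-strand binding complex replication protein A, which coats unwound DNA, were the role in which 0 of 3 rose at day 10 against control. Rpa3, its small subunit (probe ILMN_1239806), had 9.74, 9.98, 9.79, 10.59 and 10.36 in control, 9.62, 9.73, 9.35 and 9.12 at day 2, and 9.30, 8.82 and 9.11 at day 3. It had 10.47, 10.38 and 10.75 at day 10 and 10.72, 10.70, 10.50 and 10.47 at day 28. All day 2 and day 3 arrays were below every control, and the day 10 and day 28 arrays lay beside controls 4 and 5. Rpa3 fell by 0.64 ± 0.16 at day 2 (1.56-fold, adjusted p = 0.0183) and by 1.02 ± 0.18 at day 3 (2.03-fold, adjusted p = 0.0001). Without controls 4 and 5 the day 2 difference was -0.38 and not called (adjusted p = 0.211), and the call was also lost without control 4, control 5, day 2 array 3 or day 2 array 4 alone (0.0536 to 0.0824). The same call was lost with the control and day 2 arrays fitted alone (0.0561), with a block for the array number (0.0806) and with array weights (0.073). The day 10 difference was 0.44 (interval 0.07 to 0.81, adjusted p = 0.0597), and without controls 4 and 5 it was 0.69 and called (adjusted p = 0.00169).

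Rpa2, the middle subunit, had 7.78, 7.83, 7.97, 8.57 and 8.18 in control, 7.36, 7.80, 7.72 and 8.12 at day 2, and 7.39, 7.04 and 7.12 at day 3. It had 8.60, 8.55 and 8.29 at day 10 and 8.47, 7.96, 8.29 and 8.24 at day 28. The 3 day 3 arrays were below every control, and the day 10 arrays overlapped the controls through control 4. Rpa2 fell by 0.88 ± 0.17 at day 3 (1.84-fold, adjusted p = 0.00038), and its second probe fell by 0.60 (adjusted p = 0.00442). At day 10 the difference was 0.41 (adjusted p = 0.0705), and 0.62 without controls 4 and 5 (adjusted p = 0.00577). Rpa1, the large subunit, differed by 0.27 at day 3 (adjusted p = 0.0939) and by 0.17 at day 10 (adjusted p = 0.289).

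All 4 genes of nucleotide supply rose at day 10, and 2 of them were among the largest changes. Tyms, thymidylate synthase, which makes the thymidine nucleotide from the uridine one (probe ILMN_2484707), had 7.05, 6.98, 7.09, 7.68 and 7.68 in control, 7.17, 7.33, 7.28 and 7.36 at day 2, and 7.55, 8.21 and 7.74 at day 3. It had 10.40, 9.77 and 9.58 at day 10 and 7.63, 7.94, 7.82 and 7.73 at day 28. The day 10 arrays were well above the rest, and controls 4 and 5 lay within the day 3 and day 28 ranges. The day 10 difference was 2.62 ± 0.19 (6.14-fold, adjusted p = 2.27e-10). The day 3 difference of 0.54 (adjusted p = 0.0344) lost its call in 8 of the other fits, among them those without control 1, 2 or 3, without day 3 array 3 and without day 3 array 2 (0.35, adjusted p = 0.257).

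The 4 tested probes of Tyms did not agree at day 10. Probe ILMN_1247173 rose by 1.20 (adjusted p = 5.8e-06), whereas ILMN_2441895 (0.10, adjusted p = 0.583) and ILMN_2441899 (0.13, adjusted p = 0.564) were not called, with control means of 6.90 and 6.82. Of the 9 replication genes with several tested probes, 6 had every probe called higher at day 10, Tyms and Lig1 had some, and Rpa2 had none.

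Tk1, the thymidine kinase of the cytosol, had 6.90, 7.0, 6.87, 6.70 and 7.33 in control, 6.94, 6.86, 6.94 and 7.53 at day 2, and 7.21, 6.69 and 7.24 at day 3. It had 9.82, 9.40 and 8.73 at day 10 and 7.05, 7.54, 7.44 and 7.05 at day 28. The groups other than day 10 overlapped throughout. Tk1 had the widest spread at day 10 (9.32 ± 0.55, SD, n = 3, against 6.96 ± 0.23, SD, n = 5, in control), with a difference of 2.36 ± 0.21 (5.13-fold, adjusted p = 3.62e-09). A second Tk1 probe was 0.43 higher (adjusted p = 0.043).

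The 2 ribonucleotide reductase genes, which supply deoxynucleotides, also rose. Rrm1, the large subunit, had 10.29, 9.87 and 9.47 at day 10 and 8.19 to 8.62 in control (1.48, 2.79-fold, adjusted p = 2.5e-08), and at day 3 it differed by -0.35 with an adjusted p of 0.0793. Rrm2, the small subunit of S phase, ranged from 7.56 to 7.88 at day 10 and from 6.43 to 7.14 in control (0.92, adjusted p = 6.85e-05), and its second probe rose by 1.13 (adjusted p = 3.73e-07).

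Both genes of fragment joining rose at day 10. Fen1, the nuclease that removes the flap left by the primer, had 8.24, 8.30, 8.35, 8.53 and 8.70 in control, 8.55, 8.32, 8.64 and 8.41 at day 2, and 8.34, 9.03 and 8.39 at day 3. It had 10.24, 10.04 and 9.83 at day 10 and 8.52, 8.33, 8.60 and 8.57 at day 28. Apart from day 3 array 2, the arrays of the other groups lay within the control range, and the day 10 difference was 1.61 ± 0.15 (3.06-fold, adjusted p = 1.17e-08). Lig1, the ligase that seals the nick, ranged from 8.20 to 8.84 at day 10 and from 6.85 to 7.22 in control (1.41, 2.67-fold, adjusted p = 2.27e-08). Of its 4 probes 2 were called, and the others had -0.05 (adjusted p = 0.837) and 0.29 (adjusted p = 0.095). Slbp, which binds the stem-loop of histone messages, was below the threshold, with group means of 6.08 in control and 6.11 at day 10.

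**Figure D3:**
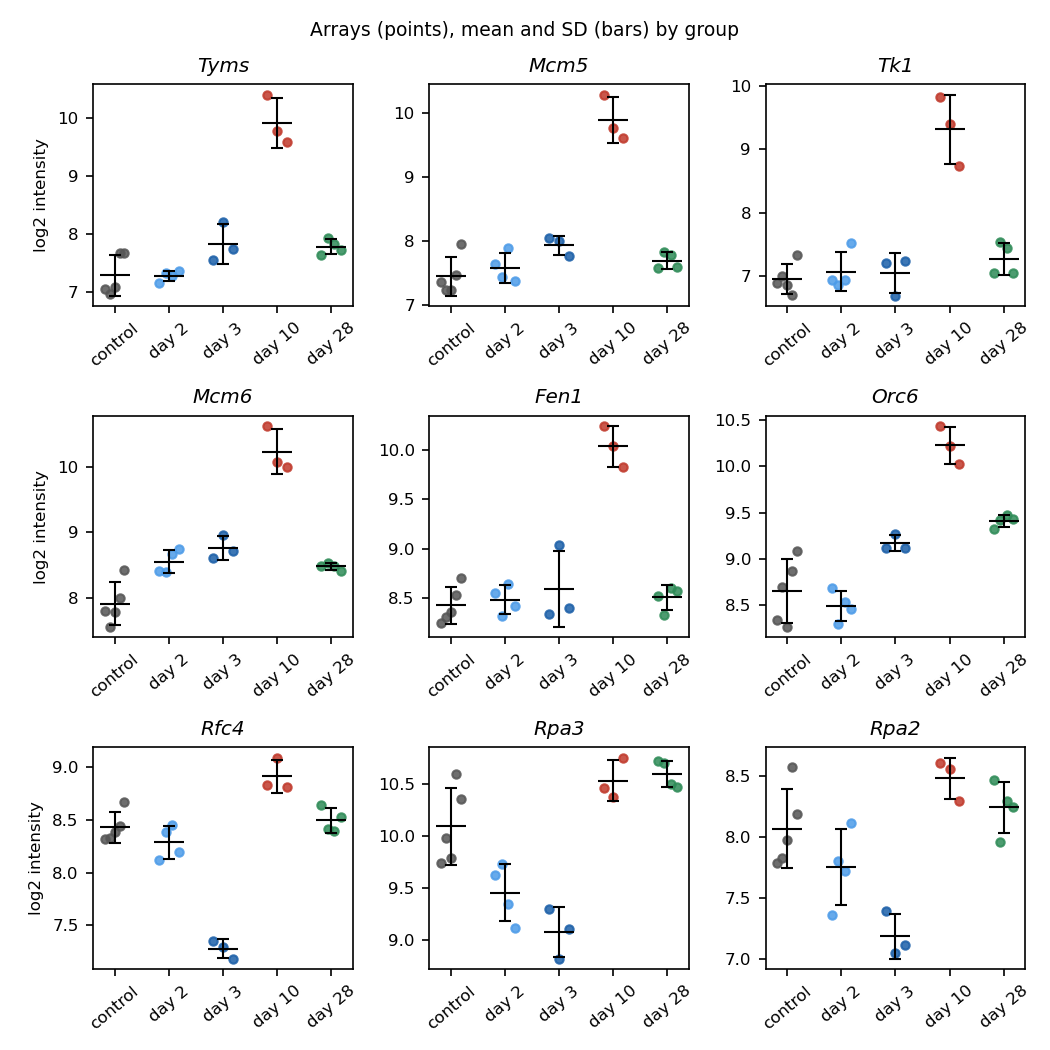
Log2 intensity of 9 replication genes on every array (points), with the mean and SD of each group (bars), from control to day 28. Tyms, Mcm5, Tk1, Mcm6, Fen1 and Orc6 are highest at day 10, and Rfc4, Rpa3 and Rpa2 are lowest at day 3.

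At day 28 the genes with the largest rise at day 10 were among those with the largest fall against day 10. Both differences use the same day 10 arrays, so this match was largely fixed in advance. Mcm5 fell by 2.19 (adjusted p = 2.9e-09), Tyms fell by 2.13 (adjusted p = 1.62e-08), Tk1 fell by 2.05 (adjusted p = 1.06e-07) and Mcm10 fell by 1.81 (adjusted p = 1.22e-08). Gins4 was the gene called higher at day 10 whose difference between day 28 and day 10 did not pass the test (-0.31, adjusted p = 0.112). Orc6 fell by 0.81 against day 10 (adjusted p = 0.000374) and was the gene called above control, as given with its role. The differences of the 29 genes between day 28 and control ranged from -0.15 for Mcm10 to 0.76 for Orc6.

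**Figure D4:**
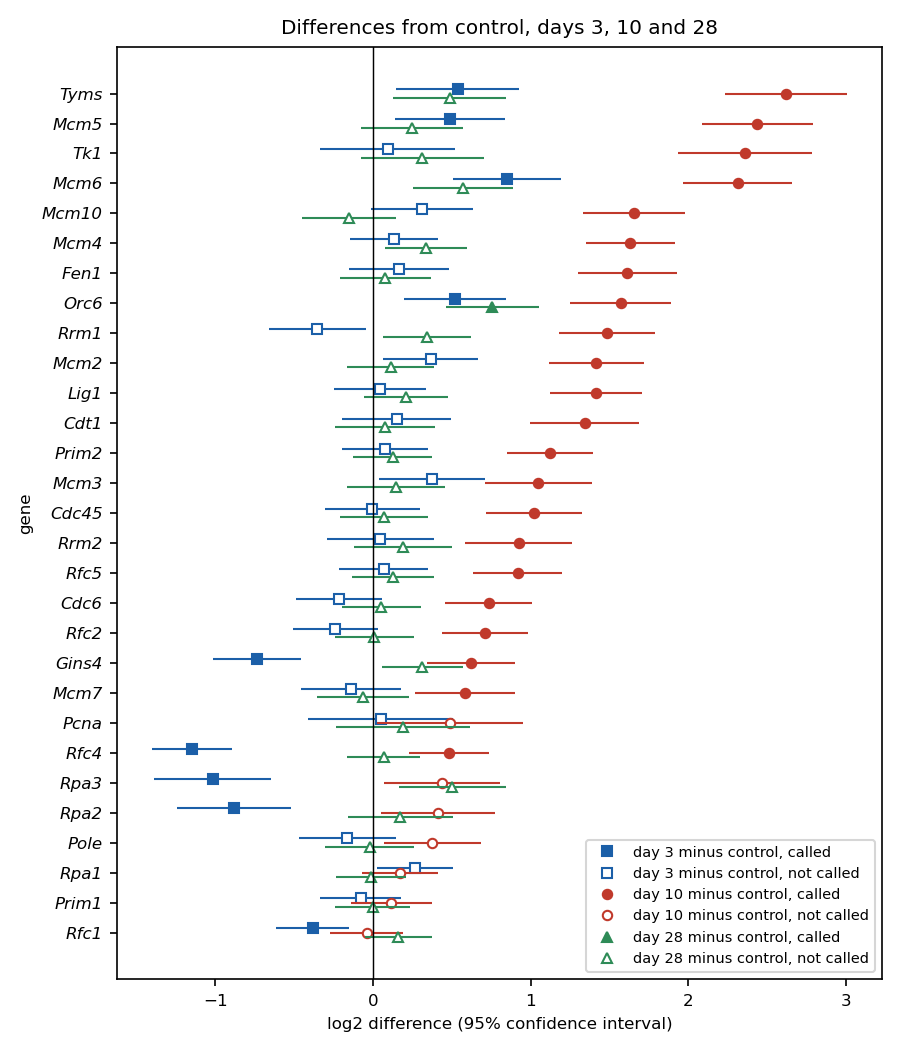
Log2 difference from control of the 29 tested replication genes at day 3, day 10 and day 28, with 95% confidence intervals, ordered by the day 10 difference. Filled symbols are called: 22 at day 10, 9 at day 3 and 1 at day 28.

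Of 37 other tested genes of the replication machinery, 17 rose and 4 fell at day 10 against control (56.8% called, against 37.5% of all genes), with a median of 0.31. At day 3, 5 rose and 4 fell (24.3% called, against 30% of all genes). Uhrf1, which reads hemimethylated DNA behind the fork, was 0.79 higher at day 2 (adjusted p = 0.00115), 1.29 at day 3 (adjusted p = 6.18e-07) and 2.87 at day 10 (adjusted p = 5.06e-12). Nasp, a histone chaperone, was 1.60 higher at day 10 (adjusted p = 1.75e-08), and Dbf4, the activator of the Cdc7 kinase that fires origins, was 1.35 higher (adjusted p = 5.08e-08). At day 3, Chtf8, a subunit of an alternative clamp loader, was 0.88 higher (adjusted p = 8.41e-06) and Orc5, an origin recognition subunit, fell by 0.82 (1.76-fold, adjusted p = 0.000561). The 4 that fell at day 10 included Rrm2b, the reductase subunit used outside S phase (-1.04, adjusted p = 7.21e-08).

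Among 29 regulators of the G1 to S transition, 8 rose and 3 fell at day 3 (37.9% called, against 30% of all genes). At day 10, 11 rose and 4 fell (51.7% called, against 37.5% of all genes). Ccnd1, cyclin D1, was 0.62 higher at day 3 (adjusted p = 0.00476) and had a difference of -0.05 at day 10 (adjusted p = 0.861). Cdkn1a, the cell cycle inhibitor p21, was higher than control at day 2 (1.88), day 3 (4.14) and day 10 (2.26), each called, and had a difference of 0.20 at day 28 (adjusted p = 0.842). Cdkn2b, the inhibitor p15, was 2.65 higher at day 3 (adjusted p = 2.43e-09). E2f1, an activating E2F factor, was 0.32 higher at day 3 without a call (adjusted p = 0.109) and 1.06 higher at day 10 (adjusted p = 2.29e-06). Ccne2, a cyclin E, was 1.03 higher at day 10 (adjusted p = 4.91e-06) and Cdkn1c, the inhibitor p57, fell by 1.49 (2.80-fold, adjusted p = 8.4e-07). Tfdp2, a partner of E2F factors, fell by 1.42 at day 3 (2.67-fold, adjusted p = 5.68e-07).

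Mitosis genes were also higher at day 10: 12 of 14 rose and 1 fell, with a median of 1.33, while 0 were called at day 3 and 0 at day 28 in limma's fit. Of all genes, 18.2% were higher and 19.2% lower at day 10, and 30% were called at day 3 and 2.09% at day 28. At an unadjusted p under 0.05 in limma's fit, 1 mitosis gene was higher at day 3 and 3 were higher at day 28. At that threshold 8.2% of all genes were higher and 8.58% lower at day 28, and the share at day 3 was not counted. Cdk1, the mitotic kinase, was 2.99 higher at day 10 (adjusted p = 3.26e-10), Top2a, the topoisomerase that untangles chromosomes, was 2.52 higher (adjusted p = 3.73e-10), and Birc5, survivin, was 1.93 higher (adjusted p = 1.33e-08). Of 14 genes of the replication stress response, 4 rose at day 10, with a median of 0.24, and 1 rose and 4 fell at day 3. The shares called, 28.6% at day 10 and 35.7% at day 3, lie near those of all genes (37.5% and 30%). Blm, a helicase of stalled forks, was 1.11 higher at day 10 (adjusted p = 1.02e-07), and H2ax, the histone variant marked at broken DNA, was 0.75 higher at day 3 (adjusted p = 0.000553) and 0.97 higher at day 10 (adjusted p = 1.66e-05). Hus1, a subunit of the checkpoint clamp, fell by 0.60 at day 3 (adjusted p = 0.000349), and Atm, the kinase that responds to broken DNA, fell by 0.50 (adjusted p = 0.00824).

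The shares of cell type markers called at day 10 are read against the 37.5% of all genes. They were 92.3% for macrophage and monocyte markers, 60% for neutrophil, 72.7% for cardiomyocyte and 70% for smooth muscle and pericyte markers. They lay near or below it for fibroblast (45.5%), endothelial (36.4%) and lymphocyte markers. Of 13 tested macrophage and monocyte markers 12 rose, with a median of 2.17, and their summed intensity was 51460 to 84910 at day 10, against 7875 to 18110 in control. Controls 4 and 5 were the highest of the controls, control 4 with 16157, and the sums were 10930 to 13900 at day 2, 18420 to 28260 at day 3 and 12770 to 16670 at day 28. Of 10 neutrophil markers 6 rose (8140 to 12280 at day 10, against 1892 to 3426 in control). Of 7 lymphocyte markers 0 were called in limma's fit and 1 had an unadjusted p under 0.05 (1290 to 1314, against 1188 to 1307). At that unadjusted threshold 21.3% of all genes were higher and 23.1% lower at day 10.

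Of 11 fibroblast markers 4 rose and 1 fell (30500 to 37220 at day 10, against 31540 to 41530 in control). Of 11 endothelial markers 4 fell (13830 to 16940, against 16750 to 20340), and of 10 smooth muscle and pericyte markers 2 rose and 5 fell (13910 to 16850, against 8296 to 15330). Of 11 cardiomyocyte markers 1 rose and 7 fell (281800 to 311900, against 324200 to 386600). At day 3, where 30% of all genes were called, the counts were 4 higher for macrophage markers (30.8% called) and 3 lower for fibroblast markers (27.3%). They were 2 higher and 1 lower for smooth muscle and pericyte markers (30%), and 1 higher and 4 lower for cardiomyocyte markers (45.5%). For endothelial markers 1 was lower (9.09%), and 1 each was higher for neutrophil (10%) and lymphocyte markers (14.3%). The shares other than that of cardiomyocyte markers lay near or below that of all genes. Cardiomyocyte markers, which define the labelled tissue, were bright in every group, with sums of 281800 to 386600. The lowest value on any array was 116.032, so that no marker stands at 0. In which cells the replication genes were expressed, and what part the marker changes have in their rise, was not tested.

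**Figure D5:**
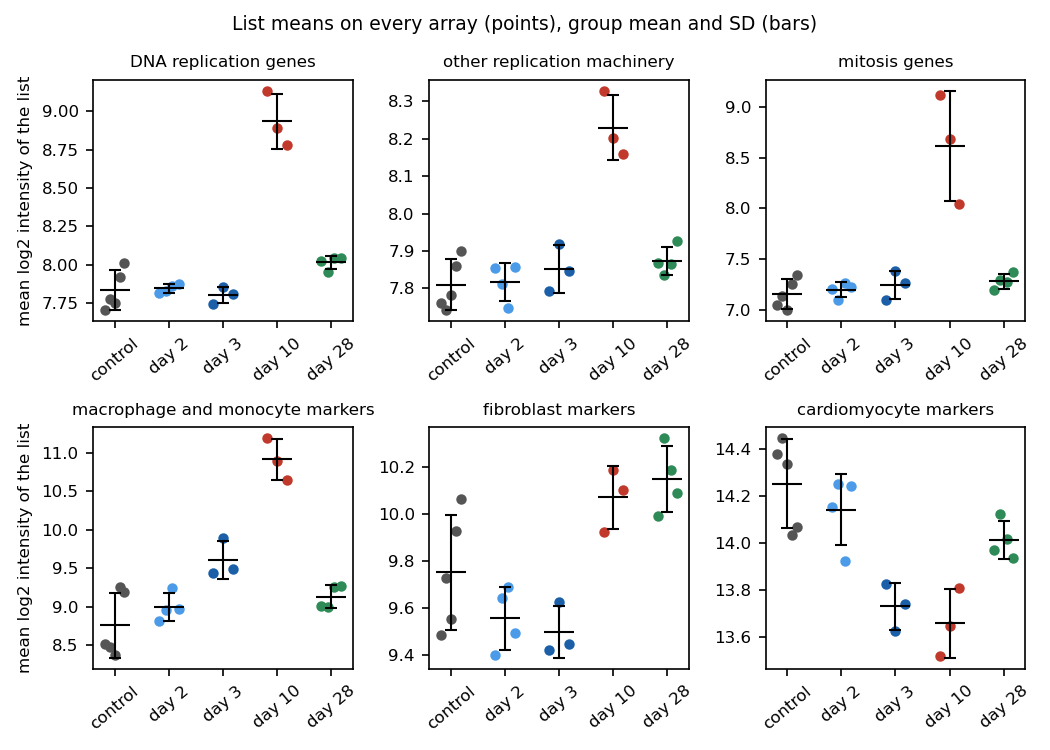
Mean log2 intensity of 6 gene lists on every array (points), with the mean and SD of each group (bars). The replication, mitosis and macrophage lists are highest on the 3 day 10 arrays, and the cardiomyocyte list is lowest at day 3 and day 10.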

How the data were processed

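RNA of left ventricular myocardium was measured on 19 Illumina bead arrays after TRIzol extraction and amplification to biotinylated cRNA, per the labels' protocols. The deposited values are probe intensities on a linear scale that the authors had already quantile-normalized between arrays, as the file shows: the sorted values of all 19 columns are identical, with a median of 191.479. The program that made them is not given in the sources used here. A further table of 38 columns, whose names match no sample label, was not used, so no detection calls were available.

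The deposited intensities were background-corrected with limma's normexp (offset 50) and log2-transformed, which understates changes of dim genes. Probes with a mean intensity at or below the 25th percentile (162.92) were removed, leaving 19272 probes and 12938 genes. The 5 group means were fitted over all 19 arrays with lmFit and eBayes (limma 3.58.1, R 4.3.3), and 2-sided p-values were adjusted by Benjamini-Hochberg over all probes in each of 7 comparisons. The number of arrays limits the precision. Probe symbols came from the platform annotation (23978 of 25697 probes had 1 symbol, 0 several and 1719 none).

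The members and all gene lists were chosen with earlier results of these data known. Values on every array are given for the members with the largest called day 10 difference of each role (1, or 2 in roles of at least 4 members) and for the 3 largest called in each other comparison. Genes of the other lists are the 3 with the smallest adjusted p at day 3 and at day 10, together with Cdkn1a, Ccnd1 and E2f1. Mki67, also in the rule, had no tested probe, and 1 gene of the replication stress list is not reported at day 10. The marker lists, and the mitosis genes at day 3, where none was called, are given as counts only. Rrm2b was named after its value was seen. On simulated arrays of 19272 probes, 93% to 96% of 100 planted 2-fold changes and 100% of 4-fold changes were called in each comparison with control, with 9 to 11 false calls. Only 200 probes were changed there and the noise was independent between probes, whereas 6894 probes were called at day 10. The false calls therefore do not estimate those of the data. Plots were made in matplotlib 3.10.9 (Python 3.11.15).

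The labels do not say whether array numbers pair the samples. Same-numbered arrays of different groups had correlated deviations of -0.165 to 0.125 (33 pairs), against -0.193 to 0.204 for other pairs (110). These ranges show no pairing but cannot exclude one. The highest correlation between any 2 arrays was 0.9893, and no 2 were identical. Alternatives were no background correction, an offset of 16, no filter, a filter at the 50th percentile, a block for the replicate number, fits restricted to the groups compared, array weights, variances that were trended and robust, the mean over a gene's probes, controls 1 to 3 alone, and leaving out each array.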

Additional observations from a re-analysis of the deposited data

Results flagged for a closer look

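Within groups of 4 or 5 arrays, 252 sets of values (84 genes in 3 groups) were examined for a single array far from the others, by its gap to the nearest value over the range of the group. Of these, 17 (6.75%) passed the 95% limit, where chance alone passes about 5%.

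Among the replication genes, Rfc2 had 9.73 on control 5, against 9.42 to 9.50 on the other controls. Tk1 had 7.53 on day 2 array 4, against 6.86 to 6.94 on the others, and Mcm4 had 9.34 on day 28 array 1, against 9.59 to 9.61. Among related genes, Top2a stood high on day 2 array 4 (7.07), and Nasp (8.77) and Rad51ap1 (7.32) stood high on day 28 array 3.

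Among cell type markers, the controls with a distant value were array 3 for Cd3g (6.34) and array 4 for Esam (11.37) and Notch3 (8.73). At day 2 they were array 4 for Dcn (14.85), array 3 for Lgals3 (10.46) and array 1 for Tnni3 (12.69). At day 28 they were array 1 for Dcn (14.87), Fbln1 (11.11) and Tnni3 (12.86), array 3 for Cspg4 (7.02) and array 4 for Ms4a1 (6.26).

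By the direct test of the groups, the change from control differed for 5 of 29 replication genes between day 3 and day 2. This share (17.2%) is near that of all genes (20%). It differed for 26 between day 10 and day 3, and for 21 between day 28 and day 10. The shares of all genes called in the latter comparisons were 32.9% and 31.6%.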

How the results depend on the processing

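No called difference of a replication gene changed sign in the alternatives that were run. Over these alternatives, 5750 of the gene-level values kept their side of the threshold, 66 gained a call and 57 lost one. The median day 10 difference ranged between 0.70 and 1.27, and that between day 28 and day 10 ranged between -0.97 and -0.65.

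The day 10 count against control did not move beyond 1.5 times, nor did the counts of genes lower at day 3 against control (5, and 4 to 7 in the alternatives) or against day 2 (3, and 2 to 4). The other small counts moved. With no background correction, 2 genes were higher at day 2 and 1 was higher at day 3 than at day 2. With a filter at the 50th percentile, 2 were higher at day 28. With the groups fitted alone, 0 were lower at day 2 and 1 was higher at day 3. With array weights, 0 were lower at day 2, 7 higher at day 3 and 4 higher at day 28. On the mean over a gene's probes, 0 were higher at day 2. Without controls 4 and 5, 0 were lower at day 2 and 5 were higher at day 28. Over all probes, 347 were called at day 28, against 1874 without controls 4 and 5, 1583 with array weights and 222 with an offset of 16, which was chosen after seeing the data. Without controls 4 and 5 the probe count at day 2 was 731, beside 1279 with them, and array weights gave 5669 probes between day 3 and day 2, beside 3612.

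With a replicate block (the array number), 0 genes were lower at day 2 and 2 were higher at day 28, and the labels do not say whether the numbers pair the samples. The block changed the probe count at day 28 to 816.

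When each array was left out in turn, 1 gene was higher and 0 to 1 lower at day 2, 1 to 5 higher and 4 to 6 lower at day 3, 22 to 25 higher and 0 lower at day 10, and 1 to 3 higher at day 28. The counts were 1 to 3 higher and 2 to 3 lower at day 3 against day 2, 24 to 26 higher at day 10 against day 3, and 20 to 22 lower at day 28 against day 10. The probe count was 105 (without day 28 array 3) to 772 (without control 5) at day 28, 814 without day 2 array 3 at day 2, and 2241 without day 3 array 2 between day 3 and day 2. Between day 10 and day 3, Rfc1 lost its call without day 3 array 1 or 2 or any 1 of the day 10 arrays (adjusted p = 0.05 to 0.151), and also with no filter (0.0616), the groups alone (0.0897), the replicate block (0.0547), trended and robust variances (0.0522), array weights (0.0591) and an offset of 16 (0.0628). In that comparison Pole lost its call without day 3 array 1 (0.0634) or day 10 array 2 (0.0998), and Mcm3 without day 10 array 1 (0.0689). Rfc4 lost its call between day 28 and day 10 without day 10 array 2 (0.105) and on the mean over its probes (0.0836). The causes of these changes were not tested. Dim probes near the threshold of 6.41 can show little of a fall.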
